A study of Homo sapiens with 24 samples.

Results

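The H3K27Ac regions of ANCO1-depleted DCIS cells were taken as every region that the authors' deposited table lists for shANCO1 DCIS chromatin against its input, 16692 regions of the 76271 listed over input in the whole series. ANCO1 is the protein encoded by ANKRD11, a nuclear ankyrin repeat protein that binds p160 coactivators and histone deacetylases. H3K27Ac ChIP-seq was performed in 10A (MCF10A, an immortalized, non-cancerous human mammary epithelial line) and in DCIS (MCFDCIS, a malignant relative of 10A whose xenografts form lesions like ductal carcinoma in situ). By lentivirus, each line received a hairpin that targets ANCO1 (shANCO1) or one that serves as control (shCTRL). Each line and hairpin had 3 immunoprecipitated and 3 input libraries, and all groups carry lentivirus. The shANCO1 chromatin came from cells with 1 hairpin, so the group is a model of that hairpin line, and the labels do not say whether the 3 libraries were separate cultures. Each deposited table holds 1 pooled value per region and neither values per library nor read counts, so that the depth and the spread between libraries behind each value are unknown.

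Acetylation of lysine 27 on histone H3 is laid down by the p300 and CBP acetyltransferases on the nucleosomes that flank active promoters and active enhancers, and histone deacetylases remove it. In mammary epithelium, enhancers that carry the mark are commonly bound by AP-1, TEAD, GRHL and TFAP2 factors, and long clusters of such enhancers tend to lie near genes that define the cell type. In what follows, a region is a run of neighbouring tested windows that the authors joined and annotated, its fold is the log2 fold over input of its representative window, and its FDR is the authors' false discovery rate over all regions of the table. A direct change is the log2 fold change of shANCO1 over shCTRL in the authors' table that compares the DCIS hairpins, which uses the same shANCO1 libraries, and higher or lower means FDR under 0.05 there. Over the 44790 regions compared there, 23.6% were higher and 4.86% lower with shANCO1. Their median log2 fold change was 0.52 and 66.9% were positive, an offset against which each direct change has to be read.

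A few sequences carry the patterns described below, and each was read from the GRCh38 genome or, for promoters and microRNAs, from RefSeq on GRCh38.p14. The sequences that follow come from regions that were higher in the direct comparison and hold matches to the AP-1 motif, TGANTCA on either strand, which is shown in capitals: a site upstream of MIR205HG outside any gene, the region with the second-largest fold in the table, and an intron of VMP1.
MIR205HG upstream, chr1:209404137-209404236, plus strand: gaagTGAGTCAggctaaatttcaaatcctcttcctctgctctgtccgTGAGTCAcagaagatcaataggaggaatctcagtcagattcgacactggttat
isolated region, chr2:62578056-62578155, plus strand: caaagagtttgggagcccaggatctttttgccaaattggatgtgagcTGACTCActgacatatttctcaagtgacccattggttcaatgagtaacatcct
VMP1 intron, chr17:59783610-59783709, plus strand: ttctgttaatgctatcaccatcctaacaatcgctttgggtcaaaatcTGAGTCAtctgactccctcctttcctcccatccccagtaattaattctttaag

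The next sequences are the RefSeq promoters, which end shortly after the start, of genes with a strong or newly listed region: F3 and IL1A with AP-1 matches in capitals, which lie outside the regions of both genes, and CAV1, which has none, with its GC boxes (GGGCGG on either strand) in capitals. Of the 35116 RefSeq promoters of the same length, 7.71% held TGANTCA and 45.0% held GGGCGG. The IL1A promoter shown overlaps no region.
F3, chr1:94541710-94542009, minus strand: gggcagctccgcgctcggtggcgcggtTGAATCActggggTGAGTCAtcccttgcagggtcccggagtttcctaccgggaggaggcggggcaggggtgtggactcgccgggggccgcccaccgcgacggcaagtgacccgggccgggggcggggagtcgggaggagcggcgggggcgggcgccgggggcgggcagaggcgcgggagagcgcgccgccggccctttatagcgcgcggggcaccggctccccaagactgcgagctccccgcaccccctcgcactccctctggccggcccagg
IL1A, chr2:112784351-112784650, minus strand: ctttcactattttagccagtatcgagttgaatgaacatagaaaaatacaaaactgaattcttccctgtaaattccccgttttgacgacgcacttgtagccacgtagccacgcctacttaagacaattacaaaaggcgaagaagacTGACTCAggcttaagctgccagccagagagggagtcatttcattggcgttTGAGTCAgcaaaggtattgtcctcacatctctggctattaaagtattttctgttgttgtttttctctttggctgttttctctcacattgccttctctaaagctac
CAV1, chr7:116524759-116525058, plus strand: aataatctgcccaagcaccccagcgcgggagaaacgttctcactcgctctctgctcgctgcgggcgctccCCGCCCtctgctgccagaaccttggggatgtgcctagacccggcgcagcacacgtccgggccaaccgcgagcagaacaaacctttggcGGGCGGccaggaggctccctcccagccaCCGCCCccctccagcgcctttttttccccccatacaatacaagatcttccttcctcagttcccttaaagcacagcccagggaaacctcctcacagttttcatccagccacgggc

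Among the microRNAs, the hairpins of MIR21, MIR205, MIR135B, MIR200C and MIR141 lay inside a region, and their mature sequences are shown with the seed, bases 2 to 8, in capitals. The let-7a and let-7b sequences share 1 seed. Their host transcript MIRLET7BHG is named in the third most heavily marked domain, which ends at chr22:46089100. The let-7a and let-7b sequences of that host start beyond it, at 46112752 and 46113691.
miR-21-5p: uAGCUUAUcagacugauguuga
miR-205-5p: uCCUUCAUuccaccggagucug
miR-135b-5p: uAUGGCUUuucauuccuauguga
miR-200c-3p: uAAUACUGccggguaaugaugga
miR-141-3p: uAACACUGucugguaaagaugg
let-7a-5p: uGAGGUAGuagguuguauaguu
let-7b-5p: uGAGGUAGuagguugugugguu

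All 16692 regions were enriched over input at FDR values from 1.72e-43 to 1.24e-08, and in each of them every tested window went up. The authors' list held no other region, and the filter behind it is not given. Enrichment of every region is therefore a property of that list. Together they covered 11.9 Mb, and the median region was 500 bp wide (quartiles 300 and 900 bp) and held 4 windows, while 2550 regions consisted of 1 window. The median log2 fold over input was 4.47, or 22.2-fold, with quartiles of 3.85 and 5.28 and a range of 2.32 to 9.60. In the other tables the median log2 fold was 4.09 over 15480 enriched regions in DCIS shCTRL, 3.40 over 28607 in 10A shANCO1 and 3.32 over 15490 in 10A shCTRL.

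Promoters, as the authors annotate them, held most of the mark. By distance, 46.2% of all regions lay within 1 kb of a coding start of the reference annotation and 49.8% within 2.5 kb. By the authors' annotation 10873 regions (65.1%, 95% Wilson interval 64.4 to 65.9, which covers counting error only) touched a promoter, 3000 (18%) lay in introns, 256 (1.53%) in exons, 650 (3.89%) beside a gene within the 10 kb reach of the flanking columns and 1913 (11.5%) away from any listed gene. Promoter regions had a lower median log2 fold (4.40) than intronic (4.69) or isolated regions (4.71). A log2 fold of at least 7 was found in 5.81% of promoter regions but in 15.1% of intronic and 15.1% of isolated ones. Wider regions were also stronger, from a median log2 fold of 3.97 at 200 bp to 5.23 over 2000 bp (Spearman's rho 0.35 across the 16692 regions, which share libraries and input and are not replicates). The rho was 0.20 among regions of at least 5 windows and 0.17 at an FDR under 1e-10. Each fold is that of 1 window, and a wider region holds more windows from which it can come. What part this has in the trend was not tested.

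The folds fell into separate ranges. They were most frequent between 4 and 4.25, where 1835 regions lay, thinned to 62 regions between 6.5 and 6.75, and were frequent again between 7 and 7.25, with 606 regions. Regions between 7 and 7.5 had a median width of 500 bp, as did those between 4 and 4.5, but 42.1% of them touched a promoter against 69.5%. In the step from 6 to 6.5, just below the gap, the median width was 1200 bp. The tables give no input read counts, so how many input reads lie behind the folds above the gap, those of the strongest regions and of CAV1 included, is unknown, and what sets the gap was not tested.

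**Figure D1:**
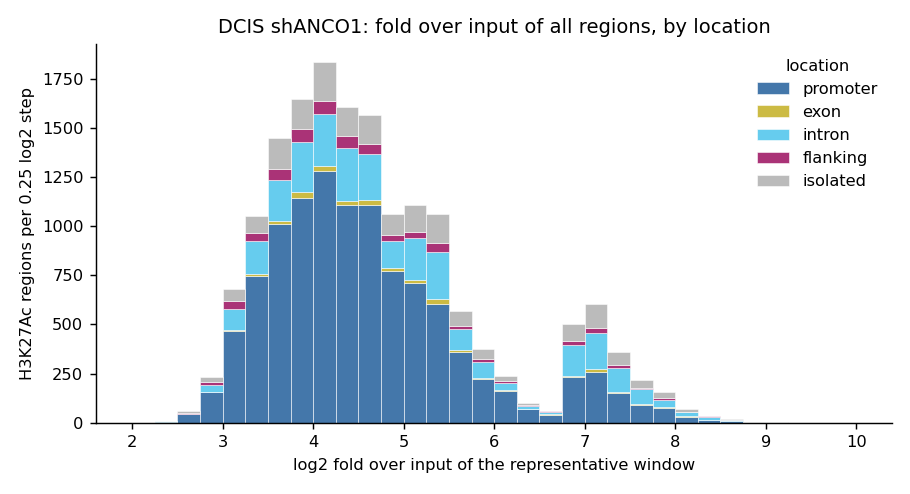
Number of H3K27Ac regions of DCIS shANCO1 cells (vertical axis) per step of 0.25 in log2 fold over input (horizontal axis), stacked by the location the authors' annotation gives. Promoter regions dominate the lower range around 4 to 4.25, few regions lie at 6.5 to 6.75, and intronic and isolated regions make up much of the upper range.

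Around the start sites of 15343 protein-coding genes, the mark stood on both sides of the start and dipped at it. Regions covered 22.6% of the sites at 300 bp downstream and 16.1% at 400 bp upstream, against 11.9% at 100 bp upstream. At 4 kb upstream the share was 0.632%. F3, which encodes tissue factor, showed this shape at a single gene: its regions, chr1:94540601-94541500 and chr1:94542001-94542700, left 500 bp between them, and the annotated start at 94541759 lay in that gap. Of the promoter regions, 70.9% lay within 1 kb of the start of a coding transcript of the reference annotation and 30.0% held such a start, whereas 20.3% of all regions were more than 50 kb from any.

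**Figure D2:**
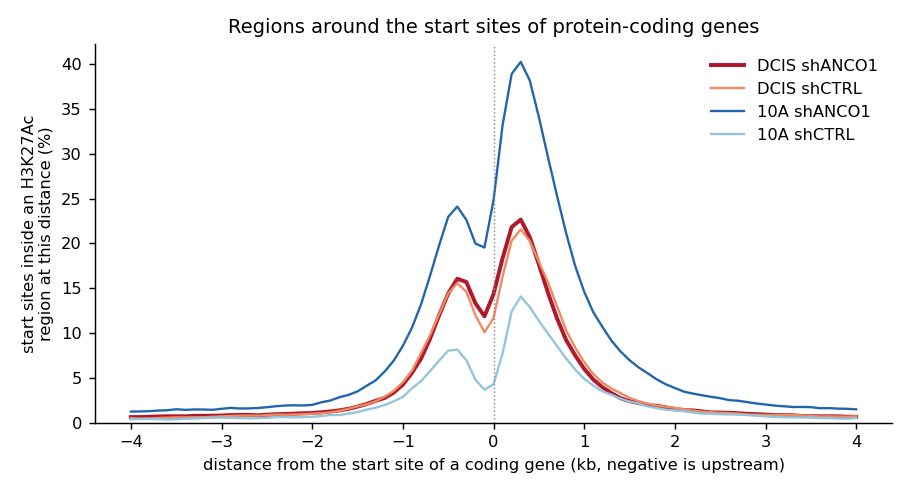
Share of the start sites of 15343 protein-coding genes that lie inside an H3K27Ac region (vertical axis, %) at each distance from the start (horizontal axis, kb, upstream negative), 1 line per group. In DCIS shANCO1 the line peaks at 22.6% downstream and 16.1% upstream of the start, close to DCIS shCTRL, with 10A shANCO1 above and 10A shCTRL below.

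The strongest regions lay at long noncoding RNA genes, at an isolated site, at CAV1 and at SFSWAP. The largest log2 fold among regions of at least 5 windows, 9.60, was in a 4.3 kb region at CCAT1 and CASC19, noncoding RNAs of the gene desert upstream of MYC. That region had a log2 fold of 9.58 in DCIS shCTRL, 5.43 in 10A shANCO1 and 4.44 in 10A shCTRL. Next came the isolated region chr2:62577301-62580000, with a log2 fold of 9.27 against 5.94 in DCIS shCTRL, 71.1 kb from the nearest coding start. It was higher with shANCO1 in the direct comparison (log2 fold change 2.03, FDR 1.20e-07).

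CAV1 encodes caveolin-1, the structural protein of caveolae. Its promoter region chr7:116524901-116526300 had log2 folds over input of 9.10 in DCIS shANCO1, 4.57 in DCIS shCTRL, 4.11 in 10A shANCO1 and 3.13 in 10A shCTRL. DCIS shANCO1 stood far above the other groups on this scale, and the direct comparison gave a smaller log2 fold change of 1.88 (FDR 0.00208). SFSWAP, a splicing regulator, was similar, at 9.06 against 4.15 in DCIS shCTRL, with a direct change of 1.01 (FDR 0.0164). RPL5, a ribosomal protein gene, reached 8.87 against 4.03 but did not pass the direct test (0.49, FDR 0.519), as was the case for the CASC21 region of the same gene desert as CCAT1 (8.94 against 5.65, direct 0.58, FDR 0.521). Over the 10791 regions that also overlapped a shCTRL region, the median difference in log2 fold over input was 0.48 both overall and among those not changed in the direct test. It was 0.61 among the 1561 called higher and -0.31 among the 408 called lower.

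By FDR the leading regions were at PPP1R13L, POLR1G and ERCC1 on chromosome 19, where ERCC1 encodes a DNA repair nuclease subunit (log2 fold 6.30, FDR 1.72e-43), then at DNAJB12, a co-chaperone gene, at CASC21, at DDIT4, a stress-induced inhibitor of mTORC1, and at CROCC, a ciliary rootlet gene. The 6 widest listed regions, each 5000 bp, were 2 at DNAJB12 and 1 each at ZBTB38, CDH19, SEC14L1 and TGIF1. In every group the largest listed width was 5000 bp. Neighbouring regions can overlap, as the 2 at DNAJB12 do, so a longer marked run can be listed as several regions. The widest listed regions are therefore not always the longest marked runs. TGIF1 encodes a repressor of TGF-beta signalling. The CDH19 region, at a cadherin gene, had a log2 fold of 8.37 in DCIS shANCO1 and 7.66 in DCIS shCTRL and overlapped no region in either 10A table. At the other end, the smallest log2 folds were 2.32 at CCDC200, 2.32 at GON4L and SYT11, and 2.42 at LOC107985278.

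The overlap column named 11382 genes, 10409 of them with a region at the promoter and 973 in the body only, and another 1588 genes were named in the flanking columns alone. Of 20005 protein-coding genes, 8034 (40.2%) had a promoter region, against 7615 in DCIS shCTRL, 10347 in 10A shANCO1 and 6104 in 10A shCTRL. DCIS shCTRL shared 6940 of the 8034 genes (86.4%). Of the 1094 genes that it did not share, 914 had a promoter region in 10A shANCO1 and 179 had one in DCIS shANCO1 alone. Most genes carried little of the mark: 6626 of those named had 1 region, and the median named gene had 900 bp of marked sequence.

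A few genes carried much more. PCAT1, a noncoding RNA gene that spans the desert upstream of MYC, was named by 21 regions summing to 45.8 kb, and CASC21 (26.8 kb), CASC8 (26.5 kb) and LOC105375751 (32.3 kb) lie in the same desert, where single regions name several of them. RAD51B, a gene of homologous recombination, had 44 regions and 42.5 kb. LOC105369844 had 30.4 kb, MIRLET7BHG, the host transcript of let-7a-3 and let-7b, 27.7 kb, ACTN4, an actin cross-linker, 27.5 kb, ANXA2, a phospholipid-binding annexin, 26.8 kb, and VMP1, an autophagy gene that overlaps MIR21, 25 kb. The strongest region of RAD51B had a log2 fold of 8.14 and that of ACTN4 7.25.

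Joining regions less than 12.5 kb apart gave 10155 domains, of which 63.8% consisted of 1 region. Only 44 domains held more than 10 kb of marked sequence, and they held 5.69% of all marked bases. The domain with the most, on chromosome 10 (chr10:72215501-72339000), covered DDIT4, DNAJB12, ANAPC16 and ASCC1 with 28 regions and 58.0 kb, against 62.8 kb in DCIS shCTRL, 43.3 kb in 10A shANCO1 and 20.2 kb in 10A shCTRL. Of 34 regions tested there directly, 4 were higher and 6 lower with shANCO1. Those counts stand beside the 23.6% and 4.86% of all tested regions.

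The domain of MIR205HG and MIR205, a microRNA of basal epithelium that restrains ZEB1 and ZEB2, differed most between the DCIS hairpins among the 20 leading domains. It held 23.0 kb of marked sequence in DCIS shANCO1 but 4.7 kb in DCIS shCTRL, with 39.2 kb in 10A shANCO1 and 25.7 kb in 10A shCTRL, so that DCIS shCTRL alone stood low. All 12 regions tested there were higher with shANCO1 (median log2 fold change 2.57, range 1.86 to 4.34), among them the isolated region chr1:209403401-209406600, with a log2 fold over input of 8.63, no shCTRL region, and a direct change of 2.81 (FDR 3.75e-13). The MIR205 hairpin itself lay in a region with a log2 fold of 4.85 (direct 2.18, FDR 5.22e-10).

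LIF, the leukaemia inhibitory factor gene, lay in a 23.6 kb domain of DCIS shANCO1, against 15.8 kb in DCIS shCTRL, 4.0 kb in 10A shANCO1 and 0.7 kb in 10A shCTRL, and 9 of its 14 tested regions were higher. The domain of VMP1 and MIR21, a microRNA often abundant in carcinomas, held 14.1 kb against 5.7 kb in DCIS shCTRL, with 5 of 7 tested regions higher. At the MIR21 hairpin the log2 fold was 6.01 and the direct change 2.16 (FDR 3.70e-08). PFKFB2, a glycolytic regulator, and its neighbour C1orf116 held 18.1 kb against 9.4 kb, with 5 of 8 higher. In contrast, the domains of MIRLET7BHG (26.3 kb against 28.6 kb) and TRPS1 (13.3 kb against 14.9 kb), a GATA-type repressor of mammary epithelium, had no region called in either direction, and both histone gene clusters on chromosome 6 held less than in shCTRL (12.8 against 16.1 kb and 12.6 against 14.5 kb). The 20 domains were ranked by marked sequence in DCIS shANCO1 itself.

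**Figure D3:**
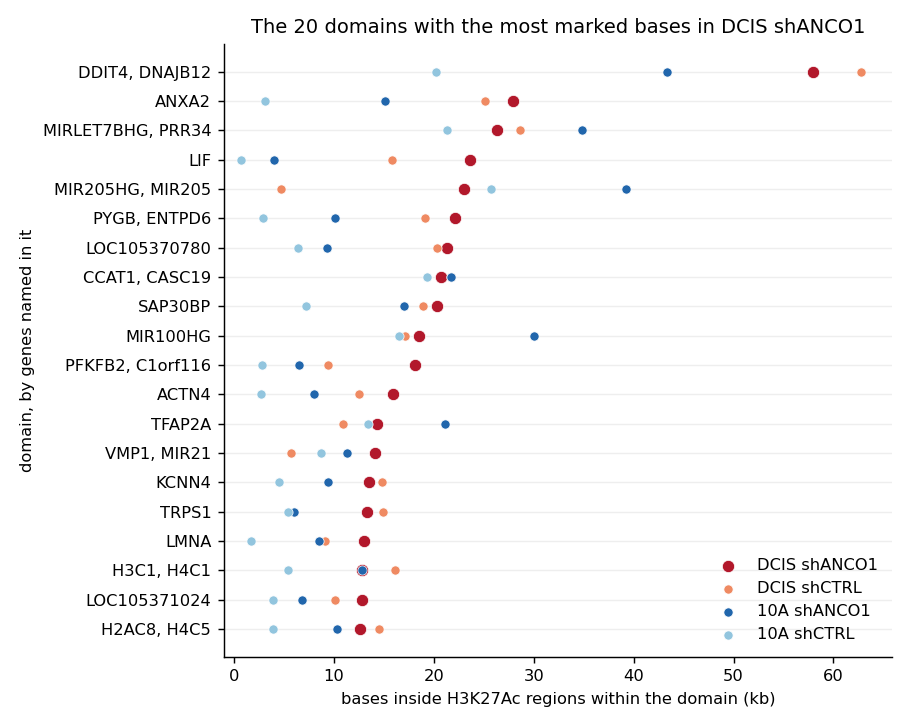
Marked bases in kb (horizontal axis) inside the 20 domains with the most of them in DCIS shANCO1 (rows, named by genes in them), in each of the 4 groups (points). The MIR205HG domain is at 23.0 kb in DCIS shANCO1 and 4.7 kb in DCIS shCTRL, while the leading domain, at DDIT4 and DNAJB12, is at 58.0 and 62.8 kb.

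Of 1562 RefSeq microRNA hairpins, 58 overlapped a region and 359 had one within 10 kb. The MIR200C and MIR141 hairpins, which restrain ZEB1 and keep the epithelial state, shared a region with a log2 fold of 4.95 that was not called in the direct test (0.47, FDR 0.998). MIR135B lay in a region at 5.30 (direct -0.81, FDR 0.586). The nearest region to MIR100, 993 bp away in its host MIR100HG, was at 6.52 (direct 0.55, FDR 0.661), although 7 of 12 regions tested in that domain were higher.

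Markers of both basal and luminal mammary epithelium carried the mark. Among 21 basal and squamous genes, 14 (66.7%) had a promoter region, against 40.2% of all protein-coding genes. TFAP2A, a transcription factor of ectoderm and mammary gland, led with 8 regions and 10.8 kb (10.0 kb in DCIS shCTRL), none of them called in the direct test. LAMB3, a chain of laminin-332, had 7.7 kb against 1.5 kb, and its 3 regions were all higher (2.09 to 3.18). CDH3, P-cadherin, had 7.0 kb against 2.0 kb, with 6 of 9 regions higher. TP63, the master regulator of basal identity, had 5 regions in its body and none at a promoter, and 4 were higher. KRT14, SOX2, SNAI2, ID4 and OXTR were not named. KRT14 was also unmarked in the other groups, while SNAI2 had promoter regions in both 10A groups.

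Of 23 luminal genes 11 (47.8%) had a promoter region, with KRT8 (9.0 kb, against 8.1 kb in shCTRL), KRT7 (6.8 against 6.4 kb), GRHL2 (6.6 against 8.7 kb), KRT19 (5.9 kb in both) and EHF (5.0 against 8.9 kb) ahead. The direct test called 0 of 7 regions at KRT8, 0 of 3 at KRT7 and 0 of 6 at GRHL2, while at EHF 1 of 5 was higher and 1 lower, and at KRT19 1 of 2 was higher. FOXA1, a pioneer factor, had 1.0 kb and no shCTRL region, and its 2 regions pair with 1 tested region that was higher (1.63). Both regions in the body of ESR1, the oestrogen receptor gene, were also higher (1.35 and 3.38). Over the whole list 6 of 36 regions were higher and 1 was lower, and on the basal list 20 of 62 were higher and 1 lower, where 25% of the 12653 regions at protein-coding genes were higher and 1.81% lower. Among the genes not named were PGR, ELF5, SPDEF, TFF1, KIT, PROM1, CSN2, LTF, ERBB4 and PRLR. Markers of other cell types seldom carried the mark: 3 of 15 immune markers (NKG7, CD68 and CD8A), 2 of 16 markers of fibroblasts and endothelium (PECAM1 and PDGFRA) and 2 of 23 markers of neurons, liver, muscle, erythroid and germ cells (GFAP and ZP3) had a promoter region, and PTPRC, CD3E, COL1A2, VWF and ALB were not named. On the last list, which also held regions in gene bodies, as at RBFOX3, all 5 regions were higher with shANCO1, among them those of GFAP, an astrocyte filament gene (3.57), and ZP3, an egg coat gene. PECAM1, an endothelial adhesion gene, had 3 regions, all lower with shANCO1 (-2.55 to -1.79), and 2.7 kb against 9.6 kb in DCIS shCTRL.

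**Figure D4:**
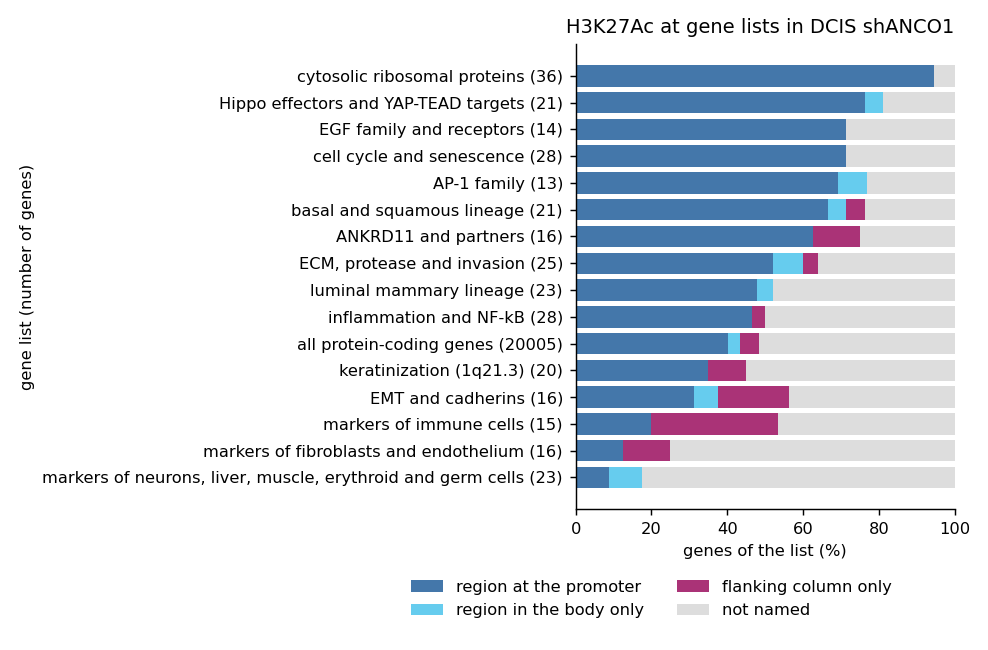
Share of each gene list (rows, number of genes in brackets) with an H3K27Ac region at the promoter, in the body only, in the flanking columns only, or not named in DCIS shANCO1 (horizontal axis, %). Ribosomal protein genes have the highest promoter share (94.4%) and the markers of neurons, liver, muscle, erythroid and germ cells the lowest (8.70%), with all protein-coding genes at 40.2%.

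Genes of adhesion, matrix and invasion had a promoter share of 13 of 25 (52%), against 40.2% of all protein-coding genes. The share of their regions called in the direct test was high: 36 of 57 were higher and 0 lower, against the same 25% and 1.81%. ITGB6 had 12.4 kb against 10.7 kb and 5 of 10 regions higher, ITGA3 10.8 kb against 5.1 kb with 7 of 7 (0.99 to 1.61), and ITGB1, the common beta chain of collagen and laminin receptors, 4.2 kb against 1.0 kb with 5 of 5 (0.97 to 5.35). ITGA6, the partner of ITGB4 in hemidesmosomes, had 10.5 kb against 11.5 kb and none of 7 called (-0.87 to 0.74). MMP14, a membrane collagenase, was higher at its promoter (2.52). COL17A1, the hemidesmosomal collagen, had 2 regions and no shCTRL region, both paired with 1 tested region that was higher (4.02). PLAT, MMP1, MMP3, MMP9, MMP10, MMP13, TIMP1, FN1 and ADAM12 were not named, although PLAT had a promoter region in DCIS shCTRL.

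On the keratinization list of chromosome band 1q21.3, 7 of 20 genes (35%) were marked at the promoter, against 40.2% of all protein-coding genes. Of its 12 regions, 9 (75%) were higher and 0 lower, against 25% and 1.81% at all protein-coding genes. S100A2 (7.0 kb, against 6.5 kb in shCTRL), S100A11 (5.8 against 4.6 kb), S100A10 (5.3 against 3.7 kb) and S100A6 (3.5 against 2.2 kb), genes of calcium-binding proteins, had the most marked sequence. SPRR1B, a cornified envelope precursor, had 1 region of 200 bp at a log2 fold of 3.49 (direct 2.53, FDR 1.88e-06), and the overlap column named the gene in no other group. LCE3D, LCE1A, SPRR1A, SPRR2A, SPRR3, S100A7, S100A8, LORICRIN, FLG, CRNN and TCHH were not named.

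In the EGF family, 10 of 14 genes (71.4%) had a promoter region, against 40.2% of all protein-coding genes. Of 28 regions, 15 (53.6%) were higher and 1 (3.57%) lower, against 25% and 1.81% at all protein-coding genes. TGFA, a ligand of the EGF receptor, had 4.3 kb against 0.9 kb with 2 of 3 regions higher. AREG had 4.0 kb against 3.2 kb with 1 of 3, EGFR 3.7 kb against 0.8 kb with 4 of 7, and NRG1, a ligand of ERBB3 and ERBB4, 2.4 kb against 0.6 kb with 7 of 7 (1.74 to 3.68). NRG4 was the exception with a lower region (-2.05). EGF, HBEGF, NRG2 and ERBB4 were not named.

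Hippo effectors and YAP-TEAD targets were marked at 16 of 21 promoters (76.2%), against 40.2% of all protein-coding genes. Of 58 regions, 25 (43.1%) were higher and 0 lower, against 25% and 1.81% at all protein-coding genes. WWTR1, which encodes the coactivator TAZ, had 11.5 kb against 9.6 kb with 6 of 9 higher, CRIM1 5.2 kb against 5.8 kb with 1 of 6, AJUBA 4.3 kb against 1.1 kb with 1 of 3, TEAD1 3.5 kb against 2.8 kb with 1 of 6 and YAP1 3.2 kb against 2.3 kb with 2 of 4. NT5E, the ectonucleotidase CD73, had 4 regions, all higher (2.09 to 2.92), and none in shCTRL. TEAD2, VGLL3, CCN2 and ANKRD1 were not named. TEAD2 had a promoter region in DCIS shCTRL (0.4 kb) and 10A shANCO1, and VGLL3 and CCN2 had one in both 10A groups. Within the AP-1 family, 9 of 13 genes (69.2%) had a promoter region, and 7 of 19 regions (36.8%) were higher, 0 lower, beside the same shares of all protein-coding genes. FOSL2 had 4.6 kb against 5.1 kb with 1 of 4 higher, FOSL1, which encodes FRA-1, 3.4 kb against 0.9 kb with 2 of 2 (1.58 and 2.25), JUNB 2.8 kb against 2.2 kb with 2 of 5, and MAFF 2.6 kb against 1.5 kb with 1 of 1. BATF, BATF3 and MAFK were not named.

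Of 28 genes of inflammation and NF-kB signalling, 13 (46.4%) had a promoter region, against 40.2% of all protein-coding genes. Of their 25 regions, 9 (36%) were higher and 0 lower, against 25% and 1.81% at all protein-coding genes. LIF (8.6 kb, against 6.0 kb in shCTRL), CXCL1 (4.7 against 4.1 kb) and CCL20 (4.5 against 4.9 kb) led, and the chemokine genes CXCL1 (1.05, FDR 0.235) and CCL20 (0 of 3 called) did not pass the direct test. STAT3, the transcription factor downstream of LIF, had 2 of 3 regions higher and BIRC3, an NF-kB target, 2 of 3. The genes not named were IL1B, IL1RN, IL1R1, IL6, CXCL8, CCL2, TNF, TNFAIP3, NFKB2, RELA, ICAM1, SERPINB2, IL1RL1 and IL33, among which IL1B, IL1R1, CXCL8, TNFAIP3, NFKB2, RELA, SERPINB2 and IL1RL1 had promoter regions in 10A shANCO1, and IL1B, IL1R1, IL6, TNFAIP3 and SERPINB2 in 10A shCTRL.

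For genes of the epithelial-mesenchymal transition, 5 of 16 (31.25%) had a promoter region, against 40.2% of all protein-coding genes. Of 17 regions, 3 (17.6%) were higher, against 25%. The 5 were epithelial genes: GRHL2, ESRP1 (3.2 kb against 2.6 kb, 1 of 3 higher), OVOL2 (2.7 kb against 2.9 kb), CDH1, E-cadherin (1.3 kb against 0.9 kb, 1 of 3 higher), and EPCAM (0.7 kb against 0.3 kb). From the families of GRHL2 and OVOL2, GRHL1 (9493 bp) and OVOL1 (6463 bp) were named only in the flanking columns, as was TWIST1 (391 bp). SNAI1, SNAI2, TWIST2, ZEB1, ZEB2, CDH2 and VIM, which mark or drive the mesenchymal state, were not named. In DCIS shCTRL, SNAI1 had a promoter region (0.9 kb, log2 fold 2.78) and ZEB2 one in its body (0.5 kb, log2 fold 6.96). SNAI2, TWIST1, TWIST2, ZEB1, ZEB2 and VIM had promoter regions in 10A shANCO1. PRRX1, a mesenchymal homeobox gene, had 1 region in its body that was higher (2.88, FDR 1.15e-08) and none in shCTRL.

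Ribosomal protein genes had a promoter region at 34 of 36 (94.4%), against 40.2% of all protein-coding genes. RPL13A (4.6 kb, against 3.2 kb in shCTRL), RPLP0 (4.2 against 3.8 kb), RPL3 (4.0 against 3.2 kb) and RPL8 (3.6 against 2.1 kb) were ahead. Of 50 regions, 6 (12%) were higher, where 19.7% of all promoter regions were. RPS9, which had a promoter region in DCIS shCTRL, and RPS18 were not named. In the cell cycle list 20 of 28 were marked and 7 of 51 regions were higher, 1 lower. CDK6 had 14 regions and 10.7 kb against 9.7 kb with 4 higher, CDKN1B 6.7 kb against 7.2 kb and MYC 6.7 kb against 7.0 kb with none called, and CDKN1A, a cyclin-dependent kinase inhibitor gene, had 3 regions and 2.2 kb where shCTRL had none, the strongest of them higher (2.51, FDR 2.48e-09). CDKN2A, CDKN2B, MTAP, CCND2, CCNE1, E2F1, MYCN and IGFBP3 were not named, although CCNE1 had a promoter region in DCIS shCTRL. CDKN2A, CDKN2B and MTAP lie together at 9p21: in the window chr9:21602636-22209305 both DCIS groups had 0 regions, 10A shANCO1 had 10 and 10A shCTRL 1, and on either side the DCIS shANCO1 regions stopped at 21560500 and resumed at 26891901.

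Among ANKRD11 and its partners, 10 of 16 (62.5%) had a promoter region, against 40.2% of all protein-coding genes. Of 29 regions, 7 (24.1%) were higher and 2 (6.9%) lower, against 25% and 1.81% at all protein-coding genes. ANKRD11 itself, the gene that the hairpin targets through its mRNA, had 7 regions in DCIS shANCO1, none in DCIS shCTRL, and log2 folds over input of 3.44 to 7.25. All were narrow, 200 to 700 bp, and 6 of the 7 were higher in the direct comparison (1.31 to 2.11, with a pair of neighbours sharing 1 tested region), the other being at 0.78 (FDR 0.488). None of them overlapped the RefSeq promoter at chr16:89490512-89490811. The tables hold no RNA or protein value, so they do not check the knockdown. EP300 (1.0 kb), an acetyltransferase gene, and HDAC3 (0.4 kb), a deacetylase gene, were marked and not called, and NCOA1, NCOA3, KAT2A and KAT2B were not named. NCOA3 had a promoter region in DCIS shCTRL (0.9 kb, log2 fold 7.10) and in both 10A groups.

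The study names 9 genes as gaining both RNA and H3K27Ac, so their direction here is not independent evidence, nor is that of the lists above that count them. Its list covers 10A and DCIS together, and it assigned peaks to the nearest start site. Here the genes were looked up in DCIS shANCO1, by the overlap and flanking columns. In DCIS shANCO1, 5 of them had a promoter region. IL1A, the interleukin-1 alpha gene, had 1 region, chr2:112783501-112784300, with a log2 fold of 5.16 in DCIS shANCO1, no region in DCIS shCTRL, 5.17 in 10A shANCO1 and 4.95 in 10A shCTRL (direct change in DCIS 4.64, FDR 1.03e-13). That region held 0 AP-1 matches. IVL, involucrin, had 1 region of 200 bp at 4.44 (direct 3.84, FDR 2.87e-09). The F3 regions, without an AP-1 match themselves, were at 7.28 and 3.62 and pair with 1 tested region (1.5, FDR 0.000177). S100A2 already had regions at 5.08 and 4.41 in shCTRL, against 5.38 and 5.51, and its direct changes were 0.94 and 0.93. IL1B, SERPINB2 and HBEGF were not named, and PLAU, the urokinase gene, was named only in a flanking column at 9877 bp. IL1B and SERPINB2 had promoter regions in both 10A groups and PLAU in 10A shANCO1, while HBEGF was unmarked in both.

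The direct comparison of the DCIS hairpins, whose shANCO1 libraries are also those behind the regions described here, covered all 16692. Of these, 5252 (31.5%) were higher with shANCO1 and 422 (2.53%) lower, against the 23.6% and 4.86% of all tested regions. Since neighbouring regions can pair with 1 tested region, the 16692 rest on 13362 tested regions, of which 30.0% were higher and 2.5% lower. Regions entered only through enrichment in shANCO1, so a region lost with shANCO1 cannot be among them, and the larger share of higher than of lower regions follows in part from that choice. Location divided them: 19.7% of promoter regions were higher, against 52.4% of intronic, 54.3% of isolated, 54.5% of flanking and 56.6% of exonic ones. Their median log2 fold changes were 0.53 at promoters, beside the 0.52 of all tested regions, and 1.23 at introns and isolated sites.

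Strength over input was a weak guide to change. Of the 3339 weakest regions, with log2 folds up to 3.73, 29.5% were higher and 2.67% lower, and of the 3339 strongest, with log2 folds from 5.50 up, 39.0% were higher and 3.20% lower.

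**Figure D5:**
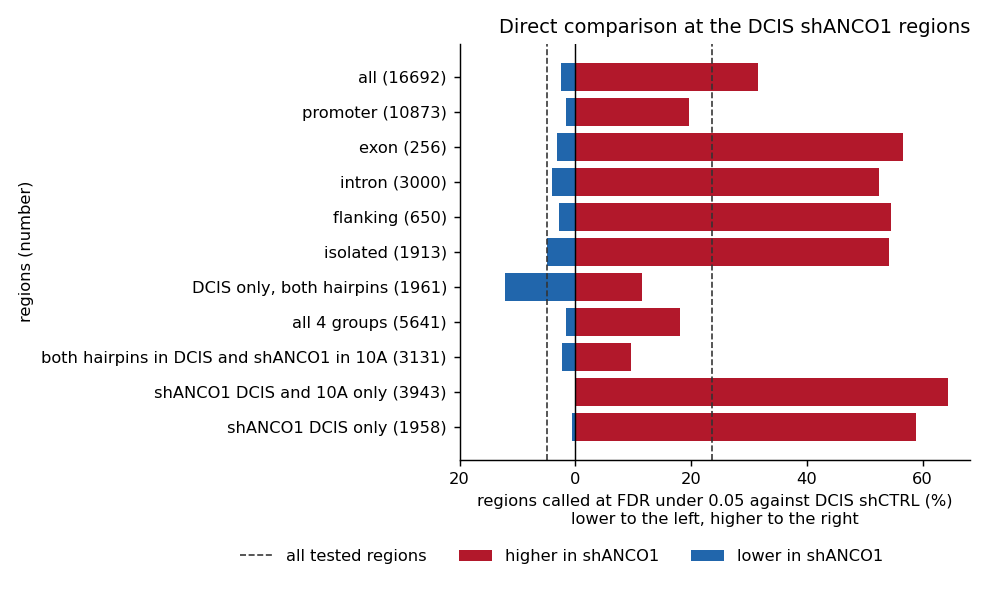
Share of the DCIS shANCO1 regions called higher (to the right, %) or lower (to the left, %) than DCIS shCTRL at FDR under 0.05, by location and by which groups share the region (rows, number of regions in brackets). Dashed lines mark the 23.6% and 4.86% of all tested regions, and regions outside promoters and regions without a shCTRL region lie beyond the upper line.

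The regions with the largest direct gains, chosen after their values were seen, were in an intron of ADAMTSL1, a matrix protein gene (chr9:18490001-18491300, 7.80, FDR 1.49e-18), at FXYD5, which encodes dysadherin (5.88), at ITGB1 and ITGB1-DT (5.35), in ASAP1 (5.05), at an isolated site on chromosome 15 (4.64) and at IL1A. The ITGB1 region was annotated as promoter but lay 22.5 kb from the nearest coding start, that of ITGB1. The FXYD5 region had a log2 fold over input of 3.61 in DCIS shANCO1 and overlapped no region in any other group, whereas the ADAMTSL1 and ITGB1 regions were also listed in both 10A groups. The largest losses included an isolated site on chromosome 11 (-3.03), PDGFC (-2.68), a platelet-derived growth factor gene, RAD51B (-2.65) and PECAM1 (-2.55). At the 1457 coding genes with at least 3 regions, all regions were higher at 155 and all lower at 6, counts that the same choice of regions tilts towards higher. Those with the most regions higher were MICAL2, an actin oxidase gene with 11 regions and 5.6 kb where shCTRL had none, ASAP2 with 10, and MCF2L2 with 9. PMEPA1, a TGF-beta target, had 8 regions and 8.1 kb against 0.9 kb. Besides PECAM1, the 6 genes were TSKU, PCTP, OSR1, MUC5B and LOX, a collagen cross-linking enzyme gene with 3 regions and 1.5 kb against 3.7 kb. These genes, too, were chosen after their values were seen.

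Compared with the other groups by an overlap of at least 1 bp, 10791 regions (64.6%) met a DCIS shCTRL region, which was true of 71.8% of the shCTRL regions in return. 12674 (75.9%) met a 10A shANCO1 region, against 41.0% of the more numerous 10A shANCO1 regions in return, and 7642 (45.8%) met a 10A shCTRL region. All 4 groups shared 5641 regions (33.8%), wide (median 800 bp) and at promoters in 78.5%. Another 3943 (23.6%) were shared with 10A but not with DCIS shCTRL, and 64.4% of these were higher in the direct comparison. The 1958 regions (11.7%) of DCIS shANCO1 alone were narrow (median 300 bp), with 58.8% higher. Both splits use the DCIS shCTRL libraries that enter the direct comparison, so both rest on the same libraries.

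The 1961 regions (11.7%) of both DCIS hairpins that neither 10A table listed were about even, with 11.6% higher and 12.1% lower. The coding genes with the most marked bases among them that neither 10A table named were SOX9 (4.0 kb), a progenitor transcription factor, IRX5 (3.9 kb), PAX7 (3.4 kb) and MYBPC1 (3.3 kb), with SFRP1, a secreted WNT inhibitor, at 2.8 kb. Conversely, 394 coding genes had promoter regions in both 10A groups and were named in neither DCIS table, led by SAMSN1, LIPA and STK4. Coding genes with a promoter region numbered 10347 in 10A shANCO1 and 6104 in 10A shCTRL, so the 394 are a small part of either. These comparisons across lines set tables side by side that were normalized separately, and no test between the lines was made here.

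Sequence composition followed location. In the central 500 bp, the AP-1 motif TGANTCA was found in 12.1% of promoter regions and 24.5% of the others, against 21.5% of all tested regions and 28.4% of tested regions outside promoters. Among the regions outside promoters it was in 27.1% of those called higher and 22.0% of those not changed. The TEAD motif GGAATG was in 24.0% of promoter regions and 29.7% of the others (27.1% of all tested regions), and the GC box GGGCGG in 50% and 11.5% (28.3%). The median GC content of these windows was 58.0% at promoters and 45.0% elsewhere. For the regions shown above, the MIR205HG upstream region held 3 AP-1 matches in 3.2 kb, the chromosome 2 region 2 in 2.7 kb and the VMP1 region 3 in 2.9 kb, while none was found in the CAV1 region or in the 7 ANKRD11 regions.

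Regions were unevenly spread over the chromosomes. Chromosome 19 had 14.1 regions per Mb and chromosome 17 had 11.8, while chromosome 13 had 2.91 and chromosome X 1.23. Per 100 coding genes the order differed, with 57.9 on chromosome 19, 85.1 on 17, 104 on 13, 133 on 8 and 22.5 on X. Promoter regions made up 85.7% on chromosome 19 and 51.7% on chromosome 13.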

How the data were processed

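ChIP-seq of H3K27Ac was analysed from region tables that the authors deposited, 1 per group against its input and 1 comparing shANCO1 with shCTRL in DCIS. According to the methods, paired reads were mapped on GRCh38 (BWA, Rsubread), stripped of duplicates (samtools) and compared between groups by csaw, which the authors ran before deposition. The csaw window, filter, joining and normalization settings are not given in the sources used here. All 3 libraries of a group entered together. Each deposited row holds a region, a log2 fold change of a representative window, a p-value with its FDR, and counts of tested windows (the deposited window count is not a read count). These columns are the authors' own comparisons and the only values in the files, so they are reported as theirs. The direct 10A table was not used here.

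Regions with FDR under 0.05 and direction up were kept. Codes in the overlap column (P, E, I) gave location, in that order. Each region was paired with the directly tested region sharing most bases. Start sites were those of GENCODE 44, and microRNAs and promoters those of RefSeq, matched by symbol. The profile around start sites used the first RefSeq promoter listed for each of the 15343 coding genes that had one. Domains joined regions less than 12.5 kb apart. Motifs were searched on both strands. Python 3.11.15, numpy 2.4.6 and pandas 2.3.3 were used, and the scripts were tested on simulated regions. Shares have 95% Wilson intervals where given.

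The regions, gene lists and tests were chosen with earlier results of these data known. Named genes were ANKRD11, the 9 genes named by the study, the 5 regions with the largest fold among those with at least 5 windows, the widest, the 5 of lowest FDR and the 3 of smallest fold, the 10 genes with the most marked bases, the 5 strongest promoter regions, and from each list the 3 to 5 members with the most marked bases and those not named. Genes named outside this rule were chosen after their values were seen. Some members of these lists are not reported here.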

Additional observations from a re-analysis of the deposited data

How the results depend on the processing

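No paired analysis was possible because the deposited columns carry no replicate, and leaving out each library in turn was impossible for the same reason. An FDR under 0.01, a log2 fold over input of at least 1 and the demand that all windows go up removed 0 regions, so these alternatives tested nothing. No other alternative reversed a direction. With regions of at least 5 windows, 6813 regions and 6396 named genes remained, the promoter share was 68.6%, the log2 fold outside promoters exceeded that at promoters by 0.45 (0.23 over all regions), the correlation of fold and width was 0.20 (0.35), the overlap was 63.8% with DCIS shCTRL and 77.8% with 10A shANCO1, 2111 regions were higher and 158 lower, 76.6% had a positive direct change (74.8%), and the AP-1 share outside promoters was 29.2%. At that setting ANKRD11 and IVL, listed in the table through narrower regions, had 0 regions left. With an FDR under 1e-10, the difference by location was 0.38, the correlation 0.17 and the overlaps 50.4% and 72.2%. By distance to a start site of the reference annotation, the promoter share was 46.2% within 1 kb and 49.8% within 2.5 kb. A reciprocal overlap of 50% gave 47.7% and 38.1%, and coverage of at least 50% of the region gave 58.0% and 71.9%. At a direct FDR under 0.01, 212 regions were lower. After centring on the median of the direct table, 59.9% of changes were positive. In the central 200 bp the AP-1 share was 9.86%. The cause of these shifts was not tested beyond the narrower definition that each sets. Without read counts, depth and the spread between libraries limit every value to an unknown degree.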
